A study of Mus musculus with 10 samples.

Results

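The growth hormone and insulin-like growth factor (IGF) axis was followed through 8 genes of mouse hepatocytes: the growth hormone receptor Ghr, the transcription factor Stat5b, the feedback inhibitor Socs2, the ligand Igf1, its carrier subunit Igfals, and the binding proteins Igfbp1, Igfbp2 and Igfbp4. They were taken by name (in the tables ghr, stat5b, socs2, igf1, igfals, igfbp1, igfbp2 and igfbp4) from the 14812 gene entries shared by 10 tables of unique molecular identifiers (UMIs, counts of distinct tagged RNA molecules), and all 8 were present. The study measured RNA in single hepatocytes at 4 zeitgeber times (ZT, hours of the light-dark cycle, with ZT0 at lights on by convention), with 3 libraries each for ZT0 and ZT12 and 2 each for ZT6 and ZT18. All 4 groups were male C57BL/6 mice aged 3 months with free access to regular chow, anaesthetised with ketamine and xylazine, and the labels name time as the difference between groups. Hepatocytes came from collagenase perfusion and a Percoll gradient and went through the 10x Chromium 3' kit, version 2. The number of mice behind a library is not in the labels, so the p-values cannot be read as a spread between mice. Those of the tests between times measure only the spread between libraries. Tests between parts of the lobule compare cells of the same library. Their p-values measure the spread that remains once the level of each library is taken out.

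Growth hormone from the pituitary binds GHR on hepatocytes, and the kinase JAK2 bound to it phosphorylates STAT5B, which enters the nucleus and switches on target genes such as Igf1, Igfals and Socs2. Hepatocytes supply most circulating IGF1, which travels in a complex with the acid-labile subunit (IGFALS) and a binding protein, while the other binding proteins hold it in smaller complexes and alter its access to receptors. In rodents the pattern of growth hormone pulses differs between the sexes and shapes much of the sex difference of liver gene expression. A liver lobule runs from the portal vein, where blood enters, to the central vein, and hepatocytes differ in expression along that axis (zonation).

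In the RefSeq annotation of GRCm38.p6 the members lie at chr15:3317755-3583352 (Ghr), chr11:100780731-100859004 (Stat5b), chr10:95383903-95417321 (Socs2), chr10:87858265-87937047 (Igf1), chr17:24877844-24882011 (Igfals), chr11:7197787-7202546 (Igfbp1), chr1:72824480-72852474 (Igfbp2) and chr11:99040005-99052655 (Igfbp4), all protein-coding. RefSeq promoter windows were at hand for 7 of the 8, in 12 windows, and none was at hand for Socs2. The 250 bases before each annotated start were searched on both strands for TTCNNNGAA, the letters that STAT5 proteins are known to bind, which reads the same on either strand. The letters occurred in 2 of the 12 windows, both of Igfals, and in 7.02% of the 32851 windows of all genes. The stretches holding them are shown because Igfals is a known growth hormone target. Both lie on the plus strand, at chr17:24877598-24877626 and chr17:24878163-24878191, and the letters begin 236 and 58 bases before 2 different annotated starts. Capitals mark the match:
Igfals, upstream start: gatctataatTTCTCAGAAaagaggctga
Igfals, downstream start: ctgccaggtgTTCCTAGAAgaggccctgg

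A second set of letters, CAAAACA, was added after the first search, because Igfbp1 is known for an insulin-response element of this kind, bound by FOXO factors. It occurred in 1 of the 12 windows, that of Igfbp1, and in 5.56% of all windows, on either strand. The 250 bases upstream of the Igfbp1 start on the plus strand are chr11:7197537-7197786, and the match in capitals begins 108 bases before the start:
Igfbp1, upstream of the start: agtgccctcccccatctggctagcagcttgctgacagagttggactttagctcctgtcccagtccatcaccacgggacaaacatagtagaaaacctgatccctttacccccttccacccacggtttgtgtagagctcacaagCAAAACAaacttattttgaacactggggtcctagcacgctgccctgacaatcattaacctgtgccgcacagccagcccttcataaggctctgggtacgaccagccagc
These matches describe letters in a window, and binding was not measured here.

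The libraries held 710 to 2860 cells and 1454623 to 7144803 UMIs, with a median of 1588 to 2662 UMIs per cell, and no cell name occurred in 2 libraries. Hepatocyte markers summed to 37367 to 69796 CPM (UMIs scaled to a fixed total per library). Summed markers of other cells were 2.75 to 14.5 CPM (6 endothelial), 3.44 to 16.9 CPM (8 stellate and fibroblast), 0 to 6.11 CPM (8 macrophage) and 0 to 0.609 CPM (6 lymphocyte). Of these markers Pecam1, Stab2, Dcn, Lrat and Reln were above 0 in all 10 libraries, and Clec4f, Csf1r, C1qa, Cd3e, Cd79a, Clec4g and Ptprb were among those at 0 in all 10. ZT18 A, ZT18 B or both stood apart in several ways. In ZT18 A, 64 of 1678 cells (3.81%) held a UMI of Xist, the RNA of the inactive X chromosome of female cells, against 1 cell in the other 9 libraries together, although the mice were labelled male. Of those 64 cells, 26.6% also held a UMI of a Y-linked gene, against 18.6% of all cells of ZT18 A. Erythroid markers summed to 361 CPM in ZT18 B, against 72.2 to 108 CPM outside ZT18, and ZT18 A lay within that range at 99 CPM. Of these markers Alas2 alone held 67.4 to 107 CPM over the libraries. Both ZT18 libraries also carry sample indices of a column that no other library uses, so time and index cannot be told apart for ZT18, and the tests of rhythm, of ZT12 against ZT0 and of zones were repeated without both libraries.

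The first question was whether the axis varied with time of day. None of the 8 members passed the test of a 24-h rhythm, against 5.14% of all 8908 genes tested, none was called between ZT12 and ZT0 (background 3.44%), and none between ZT18 and ZT6 (background 3.79%), by edgeR (quasi-likelihood F-tests, p adjusted over all genes by Benjamini-Hochberg, threshold 0.05). At an unadjusted p under 0.05 there were 2, 2 and 0 members in these comparisons, and DESeq2 called 1, 1 and 0, with Igfbp4 as the one. The median log2 amplitude of the members was 0.22, against 0.25 over all genes. The median log2 change from ZT0 to ZT12 was 0.059 over the members and -0.00075 over all genes. Scaling by library size alone, without normalization factors, moved the latter to 0.13 and the share of calls that were higher from 50.7% to 66.7%. The nearest to a call were Igfbp4, higher at ZT12, and Stat5b, lower at ZT12.

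Ghr, the receptor through which hepatocytes sense growth hormone, was measured at 474 CPM (A), 464 CPM (B) and 588 CPM (C) at ZT0. Its level was 535 and 478 CPM at ZT6. It was 658, 478 and 739 CPM at ZT12, and 465 and 420 CPM at ZT18. Libraries A and C of ZT12 lay above all others, library B lay among them, and both ZT18 values lay below those of ZT6 and ZT12. The difference between ZT12 and ZT0 was 0.15 ± 0.20 (log2, SE), with an adjusted p of 0.790 by edgeR.

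Stat5b, the main carrier of the growth hormone signal to the nucleus, was measured from 32 to 259 UMIs per library and is the least deeply sampled member. Its ZT0 libraries held 17.6, 38.5 and 32.9 CPM, those of ZT6 35.3 and 25.9 CPM, those of ZT12 22.0, 19.9 and 16.1 CPM, and those of ZT18 27.0 and 20.7 CPM. The ZT12 values were low together (19.3 ± 3.01 CPM, SD, n = 3), and of the ZT0 group library A lay among the ZT12 values. The change from ZT0 to ZT12 was -0.74 ± 0.26 (log2, SE), with an adjusted p of 0.177 by edgeR. Without ZT0 A it was called, with an adjusted p of 0.0334.

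Socs2, a growth hormone target that acts back on the receptor and dampens its signal, was the most variable member, with a 6.79-fold span of CPM between libraries. The ZT0 libraries held 10.1 (A), 67.0 (B) and 19.2 (C) CPM, so nearly the whole span occurred within 1 group. ZT6 had 51.4 and 68.8 CPM, ZT12 had 44.0, 47.9 and 35.1 CPM, and ZT18 had 21.7 and 60.9 CPM. All values of ZT12 and ZT18 fell within the range of ZT0. The difference of ZT12 from ZT0 was 0.28 ± 0.53 (log2, SE, adjusted p = 0.859 by edgeR). It ranged from -0.12 to 1.42 when each library was left out in turn. The upper value came without ZT0 B.

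Igf1, the ligand that hepatocytes release into blood, was the steadiest member, with a 1.43-fold span between libraries. It was measured at 938, 1303 and 935 CPM at ZT0, 1131 and 1059 CPM at ZT6, 1212, 1164 and 1340 CPM at ZT12, and 1176 and 1164 CPM at ZT18. All 4 groups overlap in range with ZT0, whose library B was close to the highest value of ZT12. The fitted peak-to-trough fold of a 24-h wave was 1.14 (adjusted p = 0.879 by edgeR).

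Igfals, which makes the circulating complex of IGF1 large and long-lived, was measured at 55.7, 129 and 87.3 CPM at ZT0. The ZT6 libraries gave 86.5 and 86.5 CPM, those of ZT12 gave 68.7, 89.0 and 131 CPM, and those of ZT18 gave 89.6 and 116 CPM. The ranges of ZT0 and ZT12 overlapped, with ZT0 A below all other libraries. The largest fitted contrast was ZT18 against ZT6, at 0.33 ± 0.33 (log2, SE, adjusted p = 0.639 by edgeR).

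Igfbp1, a binding protein known to rise in fasting and fall with insulin, spanned 4.30-fold between libraries. Its level was 178, 381 and 506 CPM in the ZT0 libraries, 326 and 304 CPM in those of ZT6, 299, 118 and 474 CPM in those of ZT12, and 146 and 389 CPM in those of ZT18. Each of ZT0, ZT12 and ZT18 held a library below both ZT6 values and another above them. ZT12 differed from ZT0 by -0.41 ± 0.45 (log2, SE, adjusted p = 0.722 by edgeR).

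Igfbp2, a binding protein of adult and fetal liver, gave 127, 162 and 240 CPM in the libraries of ZT0, 176 and 140 CPM in those of ZT6, 151, 182 and 265 CPM in those of ZT12, and 96.8 and 124 CPM in those of ZT18. Both ZT18 values lay below all 8 others. The contrast of ZT18 with ZT6 was -0.43 ± 0.29 (log2, SE) and was not called (adjusted p = 0.446 by edgeR).

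Igfbp4, a binding protein that mostly restrains IGF action, was measured at 918, 1192 and 1015 CPM at ZT0. At ZT6 it stood at 1355 and 1178 CPM. The libraries of ZT12 held 1794, 1740.15 and 1999 CPM, and those of ZT18 held 1217 and 1063 CPM. All 3 ZT12 libraries lay above the other 7, an order found for 4.54% of all genes tested. The ZT12 mean of 1844 ± 137 CPM (SD, n = 3) compared with 1042 ± 139 CPM (SD, n = 3) at ZT0. The contrast was 0.68 ± 0.21 (log2, SE), a 1.60-fold difference, with an adjusted p of 0.109 by edgeR, 0.0512 with the library letter as a block and 0.00891 by DESeq2. The 24-h rhythm had a fitted peak at ZT 11.6 and an adjusted p of 0.146 by edgeR and 0.00397 by DESeq2. Whether Igfbp4 is called therefore depended on the test, while its direction from ZT0 to ZT12 was the same under all 19 alternatives, from 0.47 to 0.82 on the log2 scale.

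**Figure D1:**
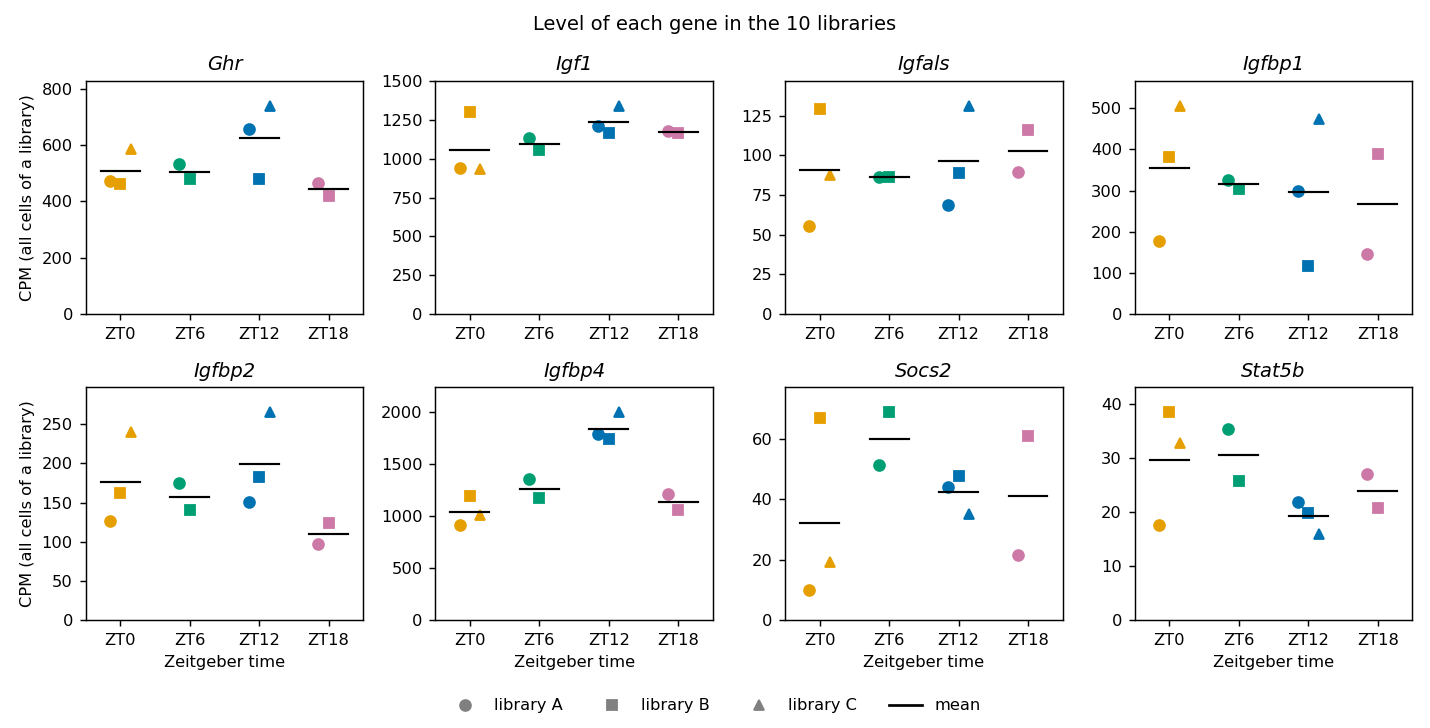
Level of each member in CPM (vertical axes, from 0) at 4 zeitgeber times (horizontal axes). Points are libraries, with the symbol giving the letter, and lines are group means: the 3 ZT12 points of Igfbp4 (1740.15 to 1999 CPM) lie above all others, while Socs2 and Igfbp1 spread as widely within a time as between times.

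The second question was how the members vary along the lobule. Cells of each library were ordered by 8 periportal and 8 pericentral landmark genes, none of them a member, and split into 3 equal zones, pericentral, middle and periportal. Of the 8 members, 6 differed between the periportal and pericentral zones, 3 in each direction, against a background of 27% of 8894 genes (13% higher and 14.1% lower in the periportal zone). Igf1, Igfals and Igfbp2 were higher in the periportal zone, Ghr, Socs2 and Igfbp1 were higher in the pericentral zone, and Igfbp4 and Stat5b were not called. The median log2 difference was 0.051 over the members and -0.0082 over all genes. Scaling by library size alone moved the latter to -0.11 and the share of calls that were higher from 47.9% to 27.4%, and the 6 members were called in the same direction under that scaling too. The order itself was checked on zonated genes that it did not use: all 5 of the periportal ones (Sds, Cdh1, Arg1, Gls2, Cps1) and the 3 pericentral ones that were tested were called on the side listed.

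The mitochondrial share and a cholangiocyte marker moved with the zones. The median share of UMIs from mitochondrial genes was higher in the periportal than in the pericentral zone in 10 of 10 libraries, at 13.27% to 26.23% against 11.09% to 23.64%, with the middle zone between them in each. Sox9, the one cholangiocyte marker tested, was higher in the periportal zone, where the 4 markers of that list summed to 1.09 to 48.1 CPM, against 0 to 13.4 CPM in the pericentral zone, and Krt19 was at 0 in 8 libraries. Their part in the differences between zones was not tested.

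Ghr was highest near the central vein. Its lowest, median and highest levels over the 10 libraries were 471, 547 and 888 CPM in the pericentral zone, 405, 467 and 684 CPM in the middle, and 389, 450.2 and 654 CPM in the periportal zone. The level fell at both steps from pericentral to middle to periportal in 10 of 10 libraries, although the ranges over libraries overlap. The difference between the outer zones was -0.27 ± 0.048 (log2, SE, periportal minus pericentral), a 1.21-fold difference with an adjusted p of 1.36e-05 by edgeR.

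Socs2 had the widest gap between the outer zones among the pericentral members. The pericentral zone held 16.0, 64.4 and 80.9 CPM (lowest, median, highest), the middle 7.96, 46.3 and 74.9 CPM, and the periportal zone 6.47, 27.2 and 52.2 CPM. It was lower in the periportal zone in 9 of 10 libraries, and the exception was ZT18 A, with 22.4 CPM pericentral and 23.0 CPM periportal. The fitted difference was -0.68 ± 0.10 (log2, SE), or 1.60-fold, with an adjusted p of 2.90e-07 by edgeR. In cells with at least 3000 UMIs (from 44 in ZT12 C to 953 in ZT12 B) Socs2 differed by -0.44. Stat5b, upstream of it, was not called: the medians were 23.3, 24.5 and 25.8 CPM from pericentral to periportal, and the difference was 0.039 ± 0.10 (log2, SE, adjusted p = 0.884 by edgeR).

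Igf1 ran the opposite way to the receptor. Its pericentral level was 766, 941 and 1186 CPM (lowest, median, highest), its middle level 923, 1183 and 1337 CPM, and its periportal level 1027, 1264 and 1812 CPM. Both steps towards the portal side were upward in 10 of 10 libraries. The difference was 0.59 ± 0.063 (log2, SE), 1.503-fold, with an adjusted p of 1.20e-10 by edgeR. Over 8 layers the mean rose from 878 CPM in the layer nearest the central vein to 1351 CPM in that nearest the portal vein.

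Igfals followed the same direction, with 48.6, 72.6 and 113 CPM (lowest, median, highest) in the pericentral zone, 55.7, 89.4 and 143 CPM in the middle and 62.0, 109.9 and 164 CPM in the periportal zone. It was higher in the periportal than in the pericentral zone in 10 of 10 libraries, by the smallest margin in ZT12 A (71.95 against 71.8 CPM). The difference of 0.65 ± 0.073 (log2, SE), 1.57-fold, had an adjusted p of 4.72e-10 by edgeR.

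Igfbp1 was higher in the pericentral zone, at 161, 373 and 556 CPM (lowest, median, highest), than in the middle, at 117, 324 and 541 CPM, or the periportal zone, at 77.9, 279.8 and 542 CPM. It fell at both steps in 9 of 10 libraries. The exception was ZT0 C, where the level was 439 CPM pericentral, 541 CPM middle and 542 CPM periportal. The difference was -0.36 ± 0.075 (log2, SE), 1.28-fold, with an adjusted p of 0.000201 by edgeR. In cells with at least 3000 UMIs it was -0.19 and not called (adjusted p = 0.241).

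Igfbp4 was nearly level, with means over 8 layers that differed at most 1.05-fold. Its medians were 1209.5, 1238 and 1216 CPM from pericentral to periportal, and the fitted difference was 0.064 ± 0.045 (log2, SE, adjusted p = 0.326 by edgeR). The sign of that difference follows the scaling: it was -0.034 with library size alone.

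**Figure D2:**
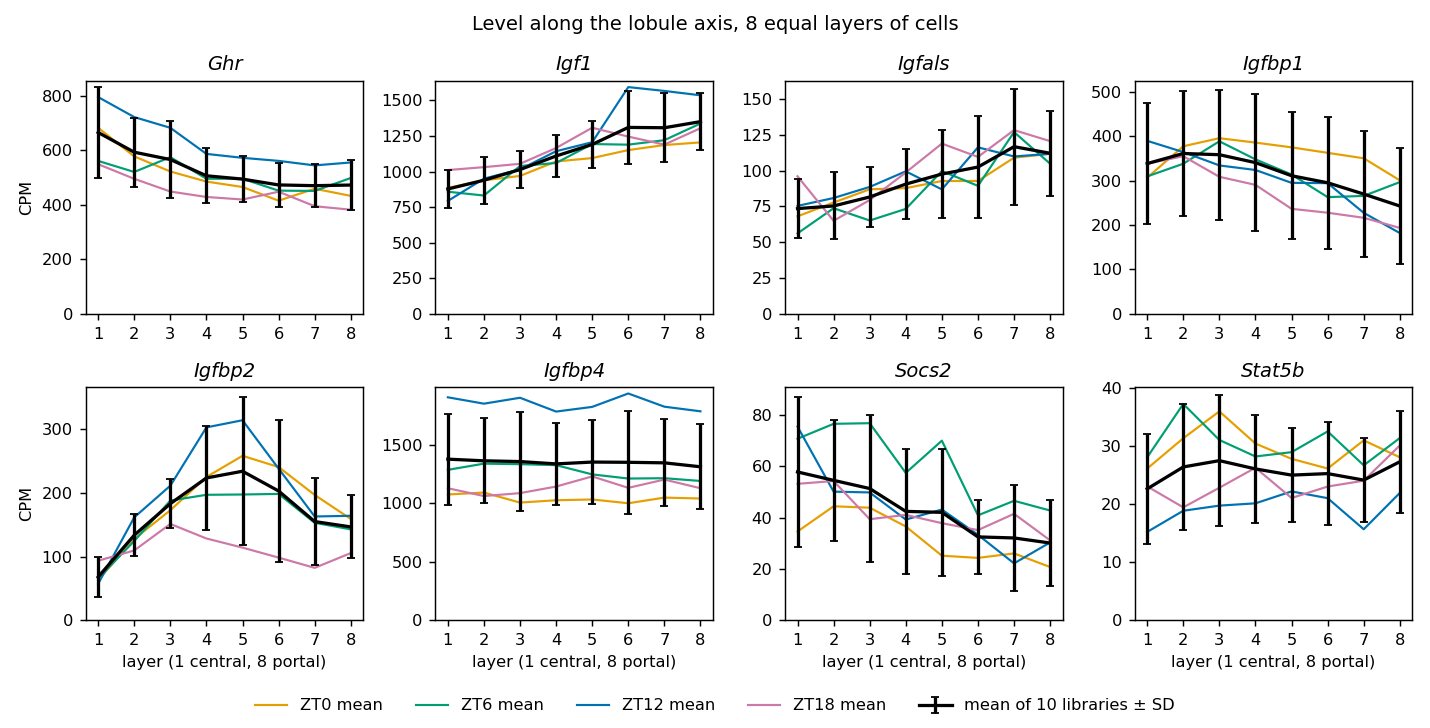
Level in CPM (vertical axes, from 0) in 8 equal layers of cells from the central (1) to the portal (8) side. Black lines are means of 10 libraries with their SD and coloured lines are means per time: Ghr and Socs2 decline and Igf1 and Igfals climb towards the portal side, Igfbp4 is level, and Igfbp2 peaks between the ends.

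Igfbp2 was the member that peaked in the middle of the lobule. Its lowest, median and highest levels were 86.7, 120.8 and 160.1 CPM in the pericentral zone, 107, 213 and 375 CPM in the middle, and 93.8, 151 and 282 CPM in the periportal zone. The middle zone held the highest level of the 3 in 10 of 10 libraries. Against the mean of both outer zones it was higher by 0.62 ± 0.095 (log2, SE), 1.54-fold, with an adjusted p of 6.83e-05 by edgeR.

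Igfbp2 was 1 of 8 members called in that comparison, against a background of 0.585% of genes (0.472% higher in the middle). It ranked 13th by size among the 42 genes called higher. The median over the members was 0.047 and over all genes 0.0064 (log2). Genes higher in the middle than the mean of the outer zones include ones that already level off there, so the zone means were compared too: of 42 genes called higher, 16 had a middle mean above both outer means, Igfbp2 among them. Other genes of those 16 were Hamp and Hamp2 (hepcidin, the hormone that limits iron uptake, and its close copy), Ccnd1 (cyclin D1, a cell cycle regulator) and Enho (a precursor of a secreted peptide).

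Over 8 layers the mean of Igfbp2 was 68.1, 134, 183, 223, 234, 203, 155 and 147 CPM from the central to the portal side. The pericentral end was thus the lowest, the highest mean was 3.44 times the lowest, and the layer with the highest level was the third to the sixth in all 10 libraries. No other member was called in the middle: Ghr lay at -0.095 ± 0.042 (log2, SE, adjusted p = 0.503 by edgeR), Igfbp1 at 0.098 ± 0.065, Igfals at 0.048 ± 0.064, Igf1 at 0.047 ± 0.055, Socs2 at 0.047 ± 0.087, Igfbp4 at 0.0078 ± 0.039 and Stat5b at -0.015 ± 0.091.

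Some erythroid markers were also called in the middle zone. Of 5 such markers, 4 (Hba-a1, Hba-a2, Hbb-bs and Hbb-bt) were called higher there. The list summed to 68.2 to 858 CPM in the middle, 76.2 to 139 CPM in the pericentral and 61.9 to 98.1 CPM in the periportal zone. The medians of the list were 89.0, 95.3 and 69.5 CPM in that order. They mostly describe Alas2, the marker not called, which held 67.4 to 107 CPM over the libraries. Hbb-bs, the haemoglobin gene with the highest level, ranged from 0.338 to 142 CPM. Its zone means were 39.2 CPM in the middle, 6.57 CPM pericentral and 2.55 CPM periportal. In ZT18 B, 8.56% of pericentral and 6.21% of middle cells held a haemoglobin UMI. In cells without a haemoglobin UMI the middle excess of Igfbp2 was 0.62 (log2, adjusted p = 0.000124), and without both ZT18 libraries it was 0.69 (adjusted p = 4.22e-05), both by edgeR.

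**Figure D3:**
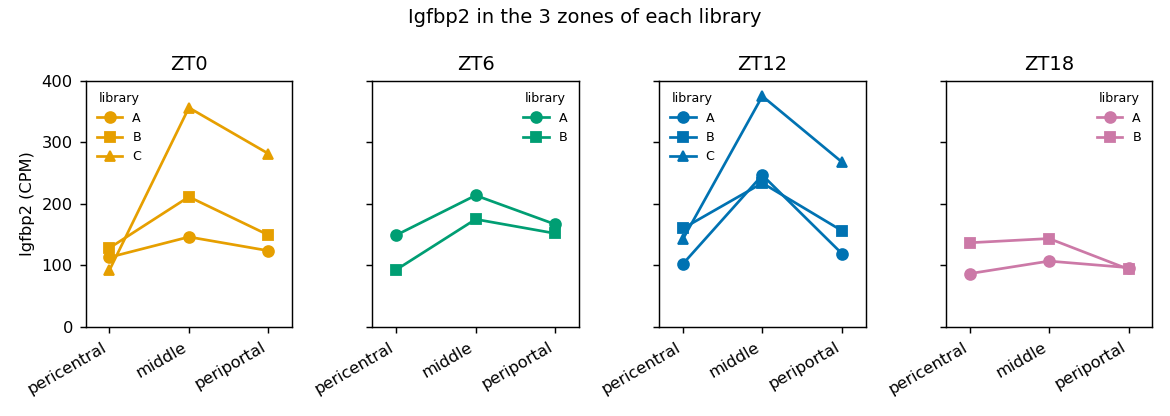
Igfbp2 in CPM (vertical axis, from 0) in the pericentral, middle and periportal zones, with 1 line per library and 1 panel per time. The middle point is the highest in each of the 10 libraries, from 107 CPM in ZT18 A to 375 CPM in ZT12 C.

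The height of the Igfbp2 peak varied between times and libraries. The middle excess on the log2(CPM + 1) scale came to 0.68 ± 0.42 at ZT0 (SD, n = 3), 0.50 ± 0.083 at ZT6 (SD, n = 2), 0.88 ± 0.30 at ZT12 (SD, n = 3) and 0.28 ± 0.081 at ZT18 (SD, n = 2). ZT18 was lowest and its 2 libraries lay at 0.23 and 0.34, with ZT0 A at 0.30 between them. A dependence of the middle excess on time was not tested. Libraries also differed in how closely scores from odd- and even-numbered landmark genes correlated. That r was 0.683 in ZT18 A and 0.696 in ZT18 B. It was 0.705 in ZT6 B, with an excess of 0.55, and 0.847 in ZT0 C, with an excess of 1.14. The part of this precision in the excess was not tested. The difference of Igfbp2 between the outer zones was 0.44 ± 0.12 (log2, SE, adjusted p = 0.00264 by edgeR). It was positive in 8 of 10 libraries and was 0.26 without ZT0 C and 0.56 without both ZT18 libraries. With the outermost and central ones of 5 equal parts of the cells as zones, it was 0.81 and the middle excess was 0.94. The ZT18 libraries had differences of 0.15 and -0.54 on the log2(CPM + 1) scale.

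**Figure D4:**
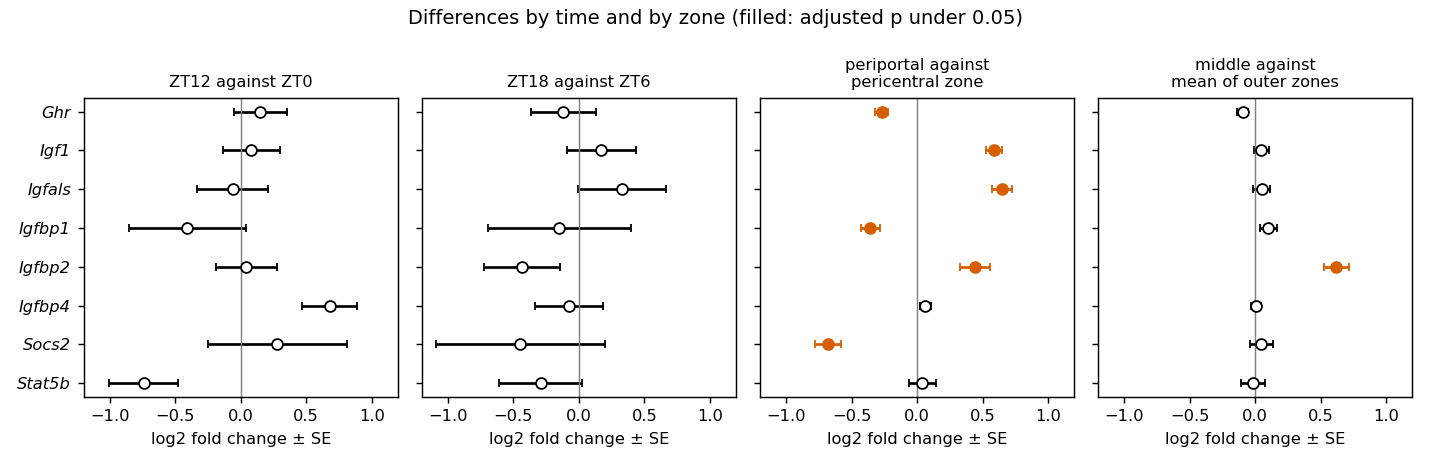
Fitted log2 fold changes (horizontal axes, points) with their standard errors (bars) for the 8 members in 4 comparisons by edgeR. Filled points have an adjusted p under 0.05: none of the members in either comparison of times, 6 between the outer zones and Igfbp2 alone in the middle zone.

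The third question was whether the rhythm of a member differed between the outer zones. None of the 8 members was called, against 0.0337% of 8907 genes (3 genes), and DESeq2 called none. Igfbp1 was the 1 member with an unadjusted p under 0.05, at 0.00179 and an adjusted p of 0.444 by edgeR. It was called with no filter on low counts (adjusted p = 0.0452 by edgeR). Igfbp2 was called in cells with at least 3000 UMIs (adjusted p = 0.00143 by edgeR, against 0.884 in all cells). That subset left only 44 cells in ZT12 C, 82 in ZT6 B and 88 in ZT12 A, against 953 in ZT12 B. On the log2(CPM + 1) scale the periportal minus pericentral difference of Igfbp1 was -0.17 ± 0.41 at ZT0 (SD, n = 3) and -0.29 ± 0.081 at ZT6 (SD, n = 2). For Igfbp1 it was -0.82 ± 0.22 at ZT12 (SD, n = 3) and -0.67 ± 0.0030 at ZT18 (SD, n = 2). All 5 libraries of ZT12 and ZT18 lay below the 5 of ZT0 and ZT6, an order noticed in the values and not tested. The share of all genes with that order was not counted, so it cannot be called unusual. Igf1 had its widest mean difference at ZT12, 0.77 ± 0.39 (SD, n = 3), where libraries A and C were at 0.96 and 1.04 and library B at 0.32, within the range of 0.23 to 0.70 of the other times (adjusted p = 0.809 by edgeR).

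For each member the 3 genes with the most similar profile were taken by Pearson correlation of log2(CPM + 1) over the 30 zone sums, among the 4342 genes whose mean reached 20 CPM. The 30 points come from 10 libraries and share their depth and processing, so the values are descriptions. Igfbp4 was most like Cpt1a (r = 0.93), the entry enzyme of mitochondrial fatty acid oxidation, Lpin1 (r = 0.90), a phosphatidate phosphatase, and Fkbp5 (r = 0.90), a co-chaperone of the glucocorticoid receptor. The genes most like Ghr included Suclg2 (r = 0.94) and Mat2a (r = 0.91), and Igf1 was most like the periportal glutaminase Gls2 (r = 0.84), Alcam (r = 0.82) and Serpind1 (r = 0.81). Igfals was most like genes of secreted plasma proteins: Serpind1 (heparin cofactor, r = 0.88), Cpn2 (a carboxypeptidase subunit, r = 0.80) and F7 (coagulation factor VII, r = 0.77). First-ranked genes of Igfbp1, Igfbp2 and Stat5b were 8430408g22rik for Igfbp1 (r = 0.88), bc089597 for Igfbp2 (r = 0.77) and Lipa for Stat5b (r = 0.72).

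Other genes of growth hormone and cytokine signalling were described as a list of 17, of which 16 passed the filter on low values. None of the 16 was called for rhythm or between times by edgeR or DESeq2, with 2 at an unadjusted p under 0.05 for rhythm, 3 for ZT12 against ZT0 and 2 for ZT18 against ZT6. Between the outer zones 5 were called: Prlr (the prolactin receptor, -0.56 ± 0.073, log2, SE), Stat5a (the close relative of Stat5b, -0.63 ± 0.18) and Irs1 (an insulin receptor substrate, -0.55 ± 0.15) were lower in the periportal zone, and Cish (a feedback inhibitor of the Socs family, 0.71 ± 0.11) and Sh2b1 (a JAK2-binding adaptor, 0.51 ± 0.13) were higher. That is 5 of 16, beside 27% of all genes, and the median was 0.021 (log2). Cish was higher in the periportal zone in 10 of 10 libraries, while Socs2, of the same family, was lower there in 9 of 10. In cells with at least 3000 UMIs 2 of the list were called.

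Of 14 further genes of IGF ligands, receptors, binding proteins and proteases, 9 were matched and 3 were tested for time. Igf1r, the IGF1 receptor, averaged 0.0753 CPM over the libraries. Igfbp5 was called for rhythm (adjusted p = 0.0315 by edgeR), with a mean of 1.69 ± 0.20 CPM at ZT6 (SD, n = 2) and 6.98 ± 2.32 CPM at ZT18 (SD, n = 2). Its mean over all libraries was 3.03 CPM beside the filter of 3 CPM, and only its ZT18 mean lay above that filter. Igfbp5 therefore entered the test only through the time at which it was high. The call was lost without ZT6 B or ZT12 A. Without ZT18 A or ZT18 B its mean fell below the filter, so it was not tested there. Insr and Igf2r, receptors for insulin and for IGF2, were not called in any comparison.

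Male-biased liver genes known to depend on growth hormone and STAT5B numbered 16, and all 16 were called between the outer zones, 6 higher and 10 lower in the periportal zone, beside 27% of all genes. Those with the largest differences were Susd4 (a complement regulator, -4.61 ± 0.30, log2, SE), Elovl3 (a fatty acid elongase, -2.12 ± 0.14), Ugt2b38 (a glucuronosyltransferase) and Mup20 (a major urinary protein, 1.78 ± 0.088). Susd4 averaged 17.2 ± 10.0 CPM in the pericentral, 4.23 ± 3.40 CPM in the middle and 0.463 ± 0.436 CPM in the periportal zone (SD, n = 10). It thus passed the filter of 3 CPM mainly through the pericentral zone, where it was high. Its periportal level is near 0, so the size of its difference is uncertain. Ugt2b38 averaged 9.27 ± 8.42 CPM in the pericentral and 56.1 ± 30.8 CPM in the periportal zone (SD, n = 10). The Mup, Ugt2b, Cyp2a, Cyp3a and Cyp4a12 families hold near-identical copies between which UMIs could be divided, so their values are uncertain. For rhythm and for ZT12 against ZT0, 1 of the 16 was called: Elovl3 fell from 496 ± 238 CPM at ZT0 to 39.1 ± 25.5 CPM at ZT12 (SD, n = 3 each), a log2 change of -3.85 ± 0.43 (SE, adjusted p = 0.000214 by edgeR). The rhythm count was 6 of 16 with the library letter as a replicate block, 5 without ZT12 C, and 2 without ZT0 A, ZT0 C or ZT12 B, and the count for ZT12 against ZT0 was 2 without ZT12 C.

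Female-biased genes were scarce: 10 of 13 were matched and 3 were tested. Their summed level was 5.76 to 104 CPM, highest in ZT12 B, and it was 48.4 CPM in ZT18 A, the library with Xist. Cyp3a44 and Acot3 were called for rhythm (adjusted p = 0.0102 and 0.0218 by edgeR). That count was 1 without ZT18 A, without both ZT18 libraries or without ZT12 C. Cyp3a44 averaged 19.0 ± 10.5 CPM at ZT18 (SD, n = 2), against means of 1.21 to 2.64 CPM at the other times. Those other means lie below the filter of 3 CPM, so Cyp3a44 entered the test only through ZT18. Without both ZT18 libraries it was not tested. Cyp2a4 was called for a rhythm that differed between zones (adjusted p = 0.0176 by edgeR). That last call rests on 1 gene with close copies, and Cyp2a4 was one of 3 genes called in that test.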

How the data were processed

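The authors deposited UMI counts per gene and cell, in 1 table per library. They are whole numbers and their totals differ between cells, so they were used as raw counts. Per the submitters' processing notes, Cell Ranger was used and the builds hg19 and mm10 are named, with no roles or versions. The annotation used and any filter on cells: not given in the sources used here. All deposited cells were used, no doublet caller was run, and whether doublets had been removed is not given. The 18378 cells held 1048 to 10001 UMIs and 8.7% to 34.44% mitochondrial UMIs. Libraries of a group were not copies of each other (chi-square of 5.76 to 68.8 per degree of freedom).

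Counts were summed per library, or per library and zone, and tested with edgeR 4.0.16 (R 4.3.3; TMM; a mean of 3 CPM or more per gene; Benjamini-Hochberg over all genes tested, threshold 0.05). The rhythm test was a 2-df test of cosine and sine with a period of 24 h. Zone tests held the library as a block and left out the landmarks. The order used the mean z-score of log values scaled to 10000 UMIs per cell. Scores from odd- and even-numbered landmarks correlated with r of 0.683 to 0.847 within libraries. DESeq2 1.42.0 was an alternative. CPM used library totals. Sequences and positions are from RefSeq (GRCm38.p6).

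Letters A, B and C pair ZT0 with ZT12: residuals from the mean of each time correlated with r of 0.284 to 0.626 for the same letter. For different letters r was -0.420 to -0.104. Residuals within a time sum to 0, so these negative values follow in part from the positive ones and are not separate evidence. The same letters also share a column of sample indices. ZT6 and ZT18 showed no such pairing. All 8 members were named in each comparison, of the lists those past the threshold (the largest 6 at most), and the 3 most alike genes (some of these are not reported here); members and lists were chosen with earlier results of these data known. Hamp, Hamp2, Ccnd1 and Enho were named after their values were seen, as were markers that moved with a zone.

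On simulated data for 8908 genes with 200 changed, the test of ZT12 against ZT0 recovered 42% of log2 changes of 1 and 2% of changes of 0.5; that of ZT18 against ZT6 recovered 12% and 1%. For 8910 genes the zone test recovered 91% and 66%.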

Additional observations from a re-analysis of the deposited data

Results flagged for a closer look

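Among 16 combinations of a member with the periportal minus pericentral difference or the middle minus outer difference, 1 had a library far from the other 9. The middle minus outer difference of Igf1 was -0.23 in ZT12 A on the log2(CPM + 1) scale, against -0.019 to 0.15 in the others. Chance gives such a library in about 1 of 20 groups, and 1 among 16 is close to that share.

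The 16 combinations were each compared over 6 pairs of times. In 4 cases all libraries of a time lay on the opposite side of 0 from all those of another. The differences between times were not tested. Each time held few libraries, and the share of such cases expected by chance was not worked out. The 4 cases therefore cannot be called unusual. For Ghr the middle minus outer difference averaged 0.0047 at ZT6, against -0.13 at ZT0, -0.15 at ZT12 and -0.12 at ZT18, so ZT6 lay 0.134 above ZT0, ZT12 lay at -0.155 relative to ZT6, and ZT18 at -0.12 relative to ZT6. The ZT6 values themselves were almost 0. For Socs2 it averaged 0.20 at ZT6 and -0.14 at ZT18, a difference of -0.347.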

How the results depend on the processing

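Called members (6 between outer zones, 1 in the middle) kept their direction under every alternative run. The counts of members called changed with DESeq2 (1 for the 24-h rhythm and 1 for ZT12 against ZT0, Igfbp4 in both), and from 0 to 1 for ZT12 against ZT0 when each library was left out in turn (Stat5b, without ZT0 A). For the zone-dependent rhythm 1 was called with no filter on low counts (Igfbp1) and 1 in cells with at least 3000 UMIs (Igfbp2). With no replicate block in the zone fits 3 members were called between the outer zones (Igf1, Igfals and Ghr) and 0 in the middle (Igfbp2, adjusted p = 0.138). With the letter as a replicate block no member was called between times, as without it; with crossed letters for ZT6 and ZT18 the count was also 0.

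Values of members that were not called changed sign, and some of their fitted rhythms changed peak time. With library size alone they were 0.086 for Igfals at ZT12 against ZT0, -0.034 for Igfbp4 and -0.067 for Stat5b between outer zones, and -0.0032 for Igfbp4 in the middle. In cells with at least 3000 UMIs they were -0.041 (Ghr) and -0.14 (Igfbp2) at ZT12 against ZT0. At ZT18 against ZT6 Igfbp4 was 0.033 in those cells. There the peak of the zone-dependent rhythm moved for Ghr (log2 amplitude 0.071) and Igfals (log2 amplitude 0.20). Without both ZT18 libraries the rhythm's peak moved for Ghr (log2 amplitude 0.18) and Igfbp2 (log2 amplitude 0.25). Without them Stat5b was -0.0030 between outer zones and 0.0092 in the middle, where Igfbp4 was -0.0035. Other orders of the cells gave middle values for Socs2 of -0.014 (5 parts), -0.051 (odd landmarks) and -0.059 (even), and for Stat5b of 0.10 (5 parts) and 0.086 (even). Leaving out each library in turn gave, for ZT12 against ZT0, -0.046 to 0.25 (Igf1), -0.28 to 0.29 (Igfals), -0.15 to 0.26 (Igfbp2) and -0.12 to 1.42 (Socs2). For ZT18 against ZT6 it gave -1.06 to 0.40 (Igfbp1), -1.41 to 0.12 (Socs2) and -0.15 to 0.0028 (Igfbp4). Between outer zones it gave -0.00044 to 0.095 (Stat5b), and in the middle -0.016 to 0.075 (Socs2), -0.074 to 0.027 (Stat5b) and -0.0037 to 0.029 (Igfbp4). The log2 amplitude of the zone-dependent rhythm of Igfals was 0.065 to 0.14, and its peak moved without ZT6 B. The cause of these changes was not tested. Alternatives without the ZT18 libraries, without haemoglobin-positive cells and with ZT0 and ZT12 or ZT6 and ZT18 alone were chosen after seeing the data.

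Depth limits Stat5b and Socs2 most, with as few as 32 and 58 UMIs in a library, and 2 libraries per group limit ZT18 against ZT6.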
